A study of Homo sapiens with 60 samples.

Results

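HepG2 cells exposed for 24 h to a water extract of Citri Unshius Pericarpium at 500 µg/mL were set against HepG2 cells exposed for 24 h to a water extract of Cimicifugae Rhizoma at 500 µg/mL. The 6 libraries, 3 of each extract, were taken by their treatment labels out of 60 libraries in the series. HepG2 is a human hepatocellular carcinoma line that keeps much of the secretory and metabolic programme of hepatocytes. Citri Unshius Pericarpium is dried mandarin peel and Cimicifugae Rhizoma is the dried rhizome of bugbane species. The study profiled messenger RNA of HepG2 cells after herbal water extracts and herbal formulas at several doses. Both extracts were also given at 20 and 100 µg/mL (3 libraries each), and 3 vehicle libraries received DMSO, also for 24 h, at 0.1% in their sample labels and 2% in the text on the series. All of these libraries carry the same batch name, and the 18 extract libraries also share 1 set number in their titles, which the vehicle libraries do not. The labels do not state that replicates were grown as separate cultures. The tests therefore rest on differences among libraries of a group, and these may be technical.

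The peel is known for flavonoids and the rhizome for triterpene glycosides and phenolic acids. Hepatocytes read many such plant compounds through receptors and sensors, among them the aryl hydrocarbon receptor (AHR), which induces cytochrome P450 genes of the CYP1 family, and NRF2, which induces glutathione and quinone-reducing enzymes. Hepatocytes also receive bone morphogenetic protein (BMP) signals that set the iron hormone hepcidin through SMAD proteins, insulin signals that repress IGFBP1 and gluconeogenic genes through FOXO factors, and zinc levels that set the metallothioneins through the sensor MTF1.

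The libraries held 21976185 to 24567523 expected read counts in Citri cells and 18200990 to 21156911 in Cimicifugae cells. Counts from mitochondrial DNA made up 11.1 to 11.5% in Citri cells and 10.7 to 11.4% in Cimicifugae cells. The lowest correlation between replicates across genes was 0.997, and no library stood apart. The 10 hepatocyte markers summed to 41610 to 43082 CPM (counts scaled to library size) in Citri cells and 39828 to 41061 CPM in Cimicifugae cells, so the hepatocyte label held in both. Fibroblast markers summed to 57.7 to 62.5 CPM in Citri cells and 53.1 to 57.2 CPM in Cimicifugae cells. COL1A2 and DCN were at 0 in all 6 libraries. PDGFRB averaged 8.09 ± 0.885 CPM (SD, n = 3) in Citri cells and 13.6 ± 0.205 CPM in Cimicifugae cells. Of the 3 fibroblast markers with enough counts, 1 passed the test given below as higher in Citri cells and 1, PDGFRB, as lower. Endothelial markers summed to 3.25 to 4.38 CPM in Citri cells and 2.39 to 3.67 CPM in Cimicifugae cells, with KDR, TEK and ERG at 0. The immune marker sum was 1175 to 1228 CPM in Citri cells and 2838 to 3041 CPM in Cimicifugae cells, nearly all of it lysozyme (LYZ), while PTPRC, CD3E and MS4A1 were at 0 in all 6 libraries. Nuclear RNAs and replication histones, a sign of RNA quality, summed to 1656 to 1711 CPM in Citri cells and 1960 to 2046 CPM in Cimicifugae cells. These differences move with every result given here, and their part in the results was not tested.

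The extracts left broadly different transcriptomes at 500 µg/mL. Of 16093 genes tested with edgeR's quasi-likelihood test, 6720 (41.8%) differed at a Benjamini-Hochberg adjusted p under 0.05. Of these, 3412 (21.2%) were higher in Citri cells and 3308 (20.6%) were lower. Most differences were small: the median absolute log2 fold change of the genes called was 0.34, and 2818 of the higher and 2191 of the lower genes differed by less than 1.5-fold. At 2-fold or more the sides were unequal, with 148 genes higher and 475 lower in Citri cells. All 3 Citri libraries lay above all 3 Cimicifugae libraries in 4061 genes (25.2%) and below them in 3926 (24.4%). Most genes named below were picked only where the libraries did not overlap. Fold changes here are Citri over Cimicifugae on the log2 scale, and their median over all genes tested was -0.00. Since each sample is a bulk culture, fewer cells of a kind and less RNA per cell cannot be told apart.

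**Figure D1:**
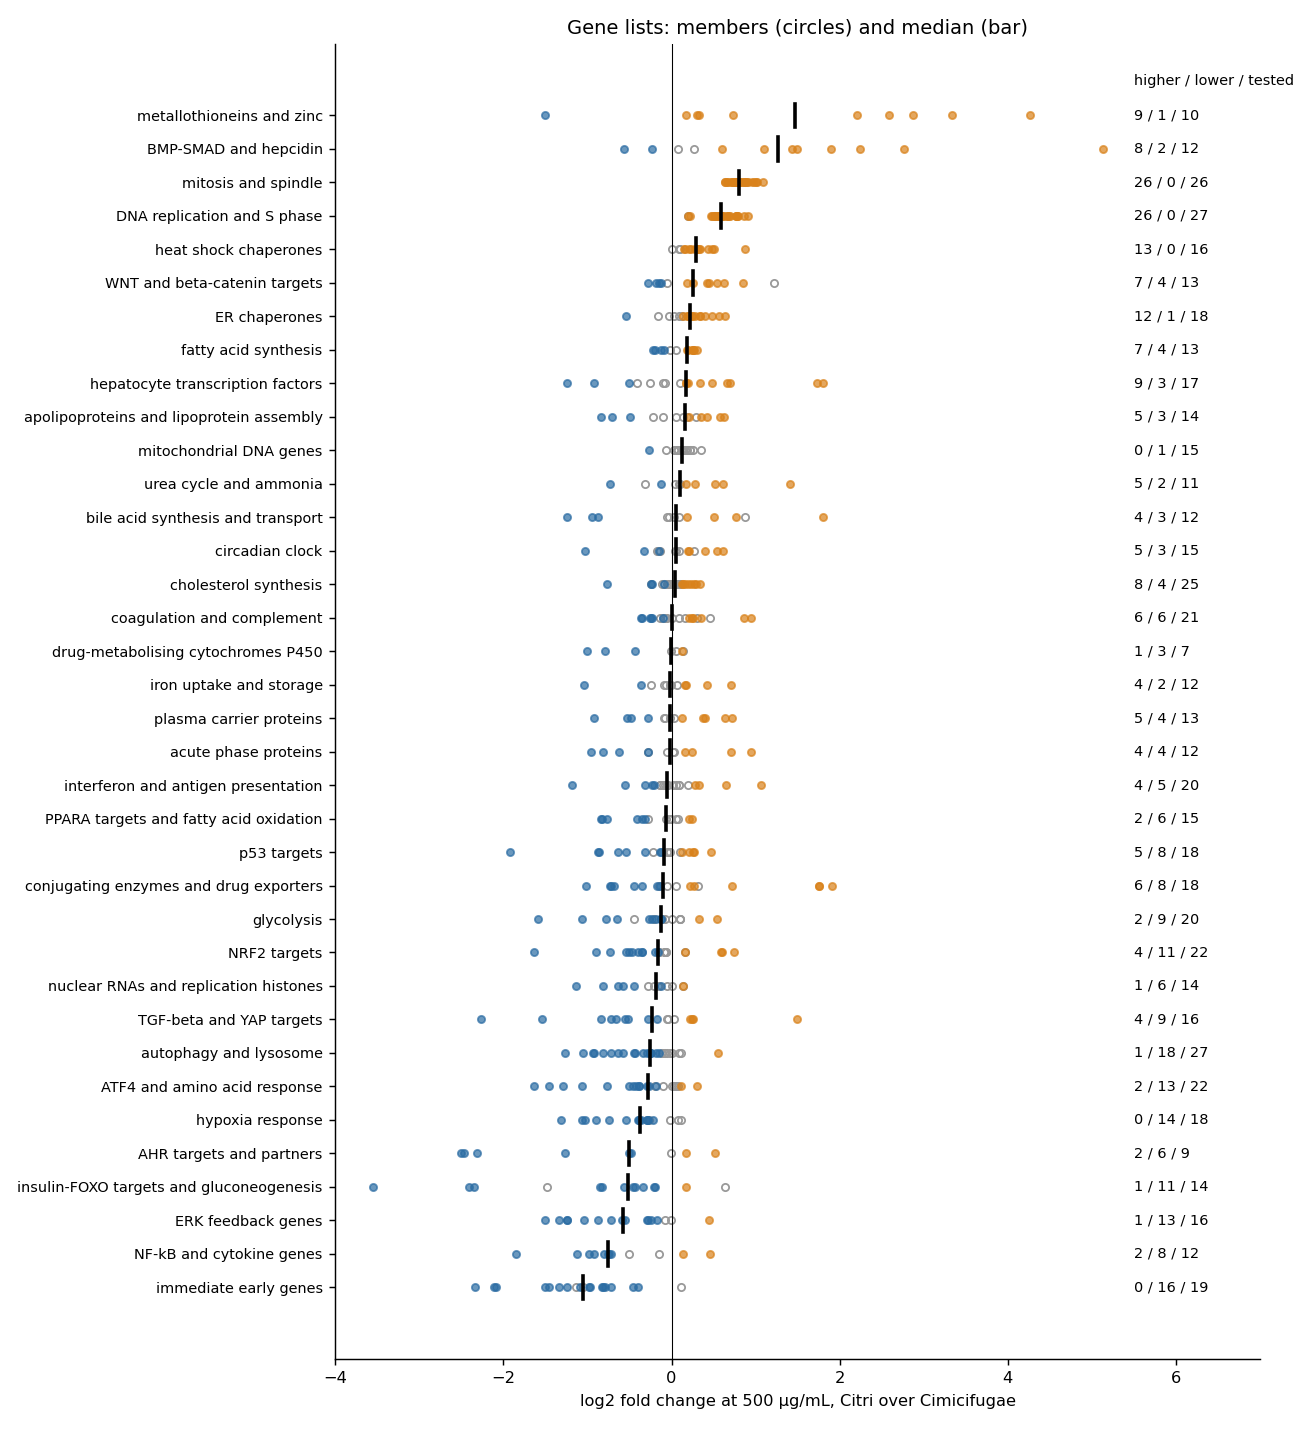
Log2 fold change at 500 µg/mL, Citri over Cimicifugae (x axis), of each tested member of 36 gene lists (rows); filled orange circles are members higher in Citri cells, filled blue circles members lower, open circles members not called by edgeR, and black bars list medians. The metallothionein, BMP-SMAD, mitosis and replication lists sit to the right of 0, and the immediate early, NF-kB, ERK feedback and FOXO lists to the left.

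Hepcidin and its BMP-SMAD companions were among the groups furthest higher in Citri cells. HAMP encodes hepcidin, the liver hormone that closes the iron exporter ferroportin, and lies at chr19:35280716-35285143 (GRCh38). It stood at 75.6, 68.4 and 73.3 CPM in the Citri libraries, against 2.10, 2.81 and 1.24 CPM in the Cimicifugae libraries. The groups were far apart, and the fold change of 5.13 (SE 0.18, edgeR adjusted p = 1.34e-27) was the highest among called, non-overlapping protein-coding genes that averaged 5 CPM or more. Vehicle cells averaged 66.2 ± 2.28 CPM (SD, n = 3), near the Citri level.

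The inhibitors of DNA binding ID1, ID2 and ID3, direct SMAD targets that block basic helix-loop-helix factors, followed. ID1 had 164, 176 and 164 CPM in Citri cells, against 36.2, 34.8 and 35.4 CPM in Cimicifugae cells, a log2 fold change of 2.24 (SE 0.09). ID3 averaged 68.1 ± 1.36 CPM in Citri cells and 18.2 ± 1.16 CPM in Cimicifugae cells (SD, n = 3 each), and ID2 averaged 144 ± 3.18 CPM in Citri cells and 53.3 ± 2.09 CPM in Cimicifugae cells. None of the 3 overlapped between the extracts, as the rule for naming them required. The inhibitory SMADs, which restrain BMP signals, were also higher in Citri cells: SMAD7 by 1.498 (SE 0.07) and SMAD6 by 1.11 (SE 0.09) on the log2 scale. ATOH8, a transcription factor that acts on the HAMP promoter, was low in both but higher in Citri cells, at 1.54 ± 0.16 CPM against 0.225 ± 0.0706 CPM in Cimicifugae cells.

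Of the 14 genes listed for this pathway 12 passed the count filter, 8 were higher and 2 lower in Citri cells, and the median log2 fold change was 1.27. Over all genes tested the shares were 21.2% higher and 20.6% lower, and the counts of every list below are read against them. The 2 lower genes were receptors: ACVR1, a type I BMP receptor, at 14.3 ± 0.508 CPM in Citri cells and 21.2 ± 1.03 CPM in Cimicifugae cells, and BMPR2, a type II receptor, with a log2 fold change of -0.24 (SE 0.06). The decoy receptor BAMBI (0.08, adjusted p = 0.428) and the protease TMPRSS6 (0.27, adjusted p = 0.138), which cleaves the BMP co-receptor hemojuvelin, did not pass the edgeR test. Iron genes beyond this pathway had no common direction: 4 of 12 were higher, 2 lower, with a median of -0.01. Ceruloplasmin (CP), the plasma ferroxidase, was the most different of them, at 68.6 ± 1.09 CPM in Citri cells and 141 ± 5.54 CPM in Cimicifugae cells.

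The stretch before the HAMP start holds the letters GGCGCC, the core of a BMP-responsive element, once, 105 bases before the start in the RefSeq promoter window (GRCh38.p14). It is shown, with those letters in capitals, because HAMP had the highest fold change among the protein-coding genes averaging 5 CPM or more that were called without overlap. The segment is chr19:35282348-35282547, plus strand.
HAMP: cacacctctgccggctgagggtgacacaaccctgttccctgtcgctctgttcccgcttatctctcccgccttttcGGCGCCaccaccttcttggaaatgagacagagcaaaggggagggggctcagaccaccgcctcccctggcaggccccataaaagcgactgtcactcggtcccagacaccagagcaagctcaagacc
Of 11068 tested genes with a promoter window of 300 bases, 29.9% hold these letters, which read the same on both strands, and 4 of the 11 windows of the BMP-SMAD list do (36.4%).

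Metallothioneins, small cysteine-rich proteins that bind zinc and copper, were the other group far higher in Citri cells. MT1G had 90.6, 71.3 and 61.8 CPM in Citri libraries, against 7.97, 7.81 and 6.26 CPM in Cimicifugae libraries (log2 fold change 3.34, SE 0.16, edgeR adjusted p = 1.27e-22). MT1F had 38.9, 32.4 and 34.0 CPM in Citri libraries, against 4.73, 5.67 and 3.89 CPM in Cimicifugae libraries. MT1X had 49.3, 38.9 and 34.1 CPM in Citri libraries, against 7.16, 8.64 and 4.43 CPM in Cimicifugae libraries. No library of the extracts overlapped in these genes, as the rule for naming them required. MT1E averaged 152 ± 27.3 CPM in Citri cells and 32.8 ± 4.22 CPM in Cimicifugae cells. Vehicle cells averaged 93.0 CPM for MT1G, 66.9 CPM for MT1F, 51.0 CPM for MT1X and 219 CPM for MT1E. The Citri means were lower, at 74.6, 35.1, 40.8 and 152 CPM in that order, with overlapping libraries in MT1G and MT1X. All of these MT1 genes lie together on chromosome 16 and are near-identical in sequence, so the share of reads that each received is uncertain.

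MT2A, which encodes another metallothionein, differed far less than its neighbours. It had 333, 258 and 251 CPM in Citri libraries, against 269, 231 and 168 CPM in Cimicifugae libraries. The groups overlapped, and the log2 fold change was 0.33 (SE 0.12, edgeR adjusted p = 0.0269). Of the 10 tested genes of the metallothionein and zinc list, 9 were higher and 1 lower in Citri cells, with a median of 1.47. The zinc exporter SLC30A1, an MTF1 target, was higher by 0.30 (SE 0.05), and MTF1 itself by 0.18 (SE 0.07). The zinc importer SLC39A10 was the lower gene, at 16.8 ± 0.961 CPM in Citri cells and 48.0 ± 2.48 CPM in Cimicifugae cells.

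Metal response elements, the MTF1 sites, share the core TGCNCNC. Segments of the MT1X and MT2A promoters are shown with each match on either strand in capitals, since these neighbours differed so unequally. MT2A was chosen after its values were seen. The segments are chr16:56682290-56682489 for MT1X and chr16:56608404-56608603 for MT2A, both on the plus strand.
MT1X: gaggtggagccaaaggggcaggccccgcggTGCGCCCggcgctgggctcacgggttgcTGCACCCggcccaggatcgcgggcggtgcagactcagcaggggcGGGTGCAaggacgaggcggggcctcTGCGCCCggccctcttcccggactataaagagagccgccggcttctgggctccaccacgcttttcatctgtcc
MT2A: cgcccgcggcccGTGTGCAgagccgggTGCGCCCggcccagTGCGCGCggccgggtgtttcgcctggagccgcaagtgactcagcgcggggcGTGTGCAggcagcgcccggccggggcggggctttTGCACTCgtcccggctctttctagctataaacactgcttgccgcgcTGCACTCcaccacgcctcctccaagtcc
The MT1X window of 300 bases holds 4 matches and that of MT2A 8, of which 6 fall in the printed segment. At least 1 match occurs in 63.2% of all 11068 windows, with a mean of 1.08 a window. Promoter windows of MT1E, MT1F and MT1G were not used here.

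**Figure D2:**
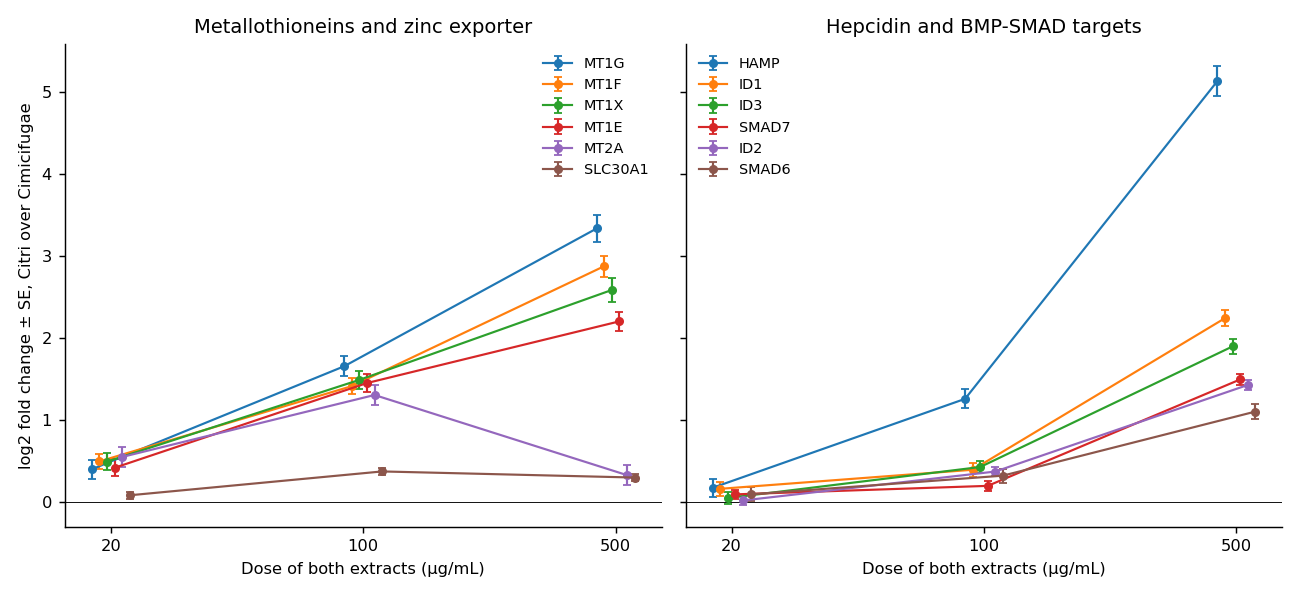
Log2 fold change ± SE, Citri over Cimicifugae (y axis), at 20, 100 and 500 µg/mL of both extracts (x axis), for metallothionein and zinc exporter genes (left) and hepcidin with BMP-SMAD targets (right). MT2A peaks at 100 µg/mL (1.31) and is 0.33 at 500 µg/mL, while MT1G and HAMP are greatest at 500 µg/mL.

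IGFBP1 and its fellow FOXO targets stood on the other side, low in Citri cells. IGFBP1, an insulin-repressed secreted protein that binds insulin-like growth factors, had 48.5, 57.3 and 51.8 CPM in Citri libraries, against 613, 603 and 628 CPM in Cimicifugae libraries. That is 11.7-fold lower in Citri cells (log2 -3.55, SE 0.10, edgeR adjusted p = 1.17e-31), and vehicle cells averaged 42.8 ± 4.21 CPM. DEPP1, a FOXO-induced gene linked to autophagy, had 14.1, 15.0 and 14.8 CPM in Citri libraries, against 78.1, 80.8 and 74.8 CPM in Cimicifugae libraries. G6PC1, the catalytic subunit of glucose-6-phosphatase, had 2.18, 3.06 and 2.64 CPM in Citri libraries, against 12.3, 13.7 and 14.3 CPM in Cimicifugae libraries. In all 3 genes the Citri libraries sat wholly below the others, as the rule for naming them required.

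Of 14 tested insulin-FOXO and gluconeogenic genes, 11 were lower and 1 higher in Citri cells, with a median of -0.51. PCK1, the enzyme that commits oxaloacetate to glucose synthesis, averaged 4.27 ± 0.499 CPM in Citri cells and 7.56 ± 0.147 CPM in Cimicifugae cells. The coactivator PPARGC1A (-0.57, SE 0.06) and the thioredoxin-binding protein TXNIP (-0.85, SE 0.10) were lower too. Among 20 glycolytic genes 9 were lower and 2 higher (median -0.13). The glucose transporter SLC2A1 had the smallest p of them, with 535, 566 and 551 CPM in Citri libraries, against 1146, 1176 and 1126 CPM in Cimicifugae libraries. SLC2A3, another glucose transporter, was higher in Citri cells, by 0.32 (SE 0.05). Of 18 hypoxia-response genes 14 were lower and 0 higher (median -0.38), among them NDRG1 (-0.90, SE 0.07) and the mitophagy receptor BNIP3L (-0.54, SE 0.07).

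CYP1A1, the standard AHR target and a monooxygenase of polycyclic aromatic compounds, stood above its vehicle level in both extracts and less so in Citri cells. Its libraries had 97.5, 97.1 and 106 CPM in Citri cells, against 557, 573 and 579 CPM in Cimicifugae cells, while vehicle cells averaged 12.6 ± 1.49 CPM. The groups did not overlap, which the naming rule required, and the log2 fold change was -2.51 (SE 0.09, edgeR adjusted p = 9.21e-28). Lower in Citri cells as well were CYP1A2 (0.173 ± 0.0101 CPM against 0.878 ± 0.347 CPM in Cimicifugae cells), the aldehyde dehydrogenase ALDH3A1 (1.16 ± 0.234 CPM against 2.79 ± 0.308 CPM in Cimicifugae cells) and the quinone reductase NQO1 (768 ± 36.6 CPM against 1094 ± 30.9 CPM in Cimicifugae cells). AHR itself had a log2 fold change of -0.49 (SE 0.06). TIPARP, an AHR-induced repressor of AHR, went the other way by 0.17 (SE 0.06, edgeR adjusted p = 0.0305), a call lost under 5 of 14 alternatives. Of the 9 tested genes of this list 6 were lower and 2 higher (median -0.51).

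Of 22 tested NRF2 targets, 11 were lower in Citri cells and 4 higher (median -0.16), beside 20.6% lower and 21.2% higher over all genes tested. SLC7A11, the cystine importer that feeds glutathione synthesis, had 50.02, 48.9 and 49.3 CPM in Citri libraries, against 148, 147 and 165 CPM in Cimicifugae libraries. The reductase AKR1B10 (-0.89, SE 0.05), the conjugate exporter ABCC2 (-0.73, SE 0.05) and the glutathione-synthesis subunit GCLC (-0.55, SE 0.04) were lower as well. HMOX1, which degrades haem, was among the 4 higher targets, by 0.59 (SE 0.07). The gene of NRF2 itself, NFE2L2, was higher by 0.52 (SE 0.04).

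Conjugating enzymes and exporters had 6 higher and 8 lower in Citri cells of 18 tested (median -0.10). The glutathione transferase GSTA1 had 84.9, 80.3 and 72.2 CPM in Citri libraries, against 22.9, 20.3 and 19.8 CPM in Cimicifugae libraries (log2 1.91, SE 0.07). Its near-identical neighbour GSTA2 gave 1.75 (SE 0.13), and reads may be shared between the pair. The sulfotransferase SULT2A1, which acts on steroids and bile acids, was higher by 0.72 (SE 0.05), while the drug exporter ABCB1 was lower, at -0.69 (SE 0.04). Of 7 tested drug-metabolising P450 genes 3 were lower, CYP3A5 (-1.002, SE 0.11), CYP2J2 (-0.79, SE 0.11) and CYP3A7 (-0.44, SE 0.11), and 1 was higher, the P450 reductase POR (0.13, SE 0.05). The POR call was lost without 4 of the 6 libraries in turn.

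**Figure D3:**
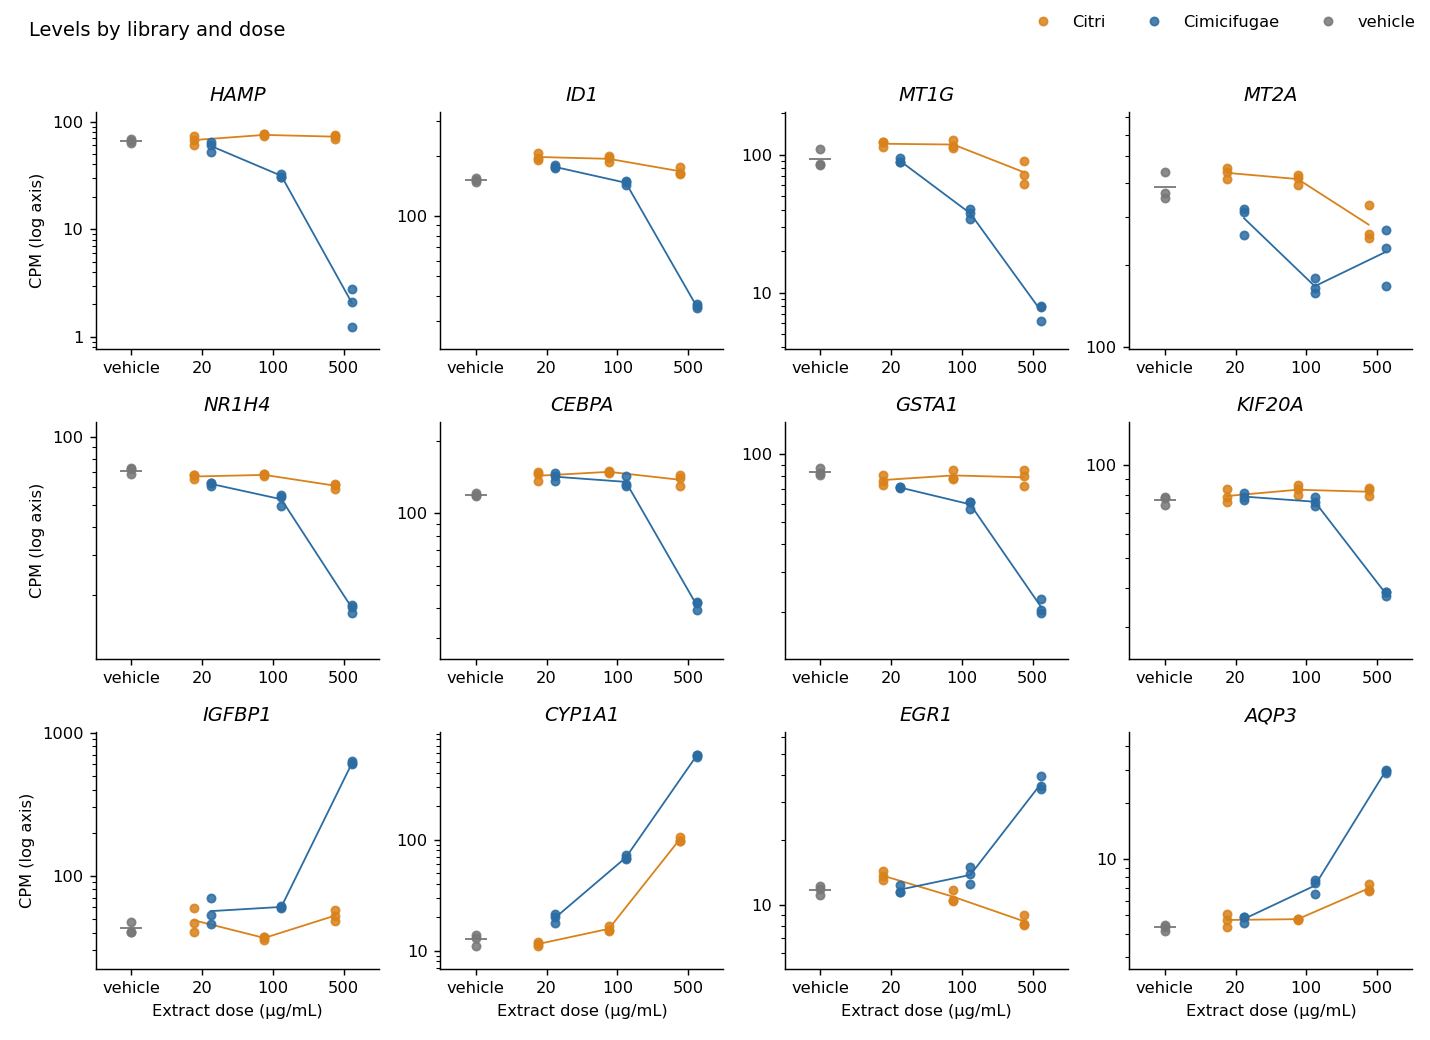
CPM on log axes (y) by dose (x) for 12 genes, each point a library and each line joining group means; orange is Citri, blue Cimicifugae and grey vehicle. HAMP reaches 2.05 CPM on average in Cimicifugae cells at 500 µg/mL and stays at 72.4 CPM in Citri cells, whereas IGFBP1 reaches 615 CPM in Cimicifugae cells and 52.5 CPM in Citri cells.

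Immediate early genes, transcription factors and phosphatases induced within minutes of a growth or stress signal, were low in Citri cells as a group. Of 19 tested 16 were lower and 0 higher, with a median of -1.05. EGR1, a zinc-finger factor downstream of ERK, had 8.11, 8.08 and 8.94 CPM in Citri libraries, against 39.3, 35.4 and 34.5 CPM in Cimicifugae libraries, and 11.7 ± 0.587 CPM in vehicle cells. JUN (-1.09, SE 0.07), KLF6 (-1.34, SE 0.06), IER3 (-1.24, SE 0.06) and DUSP5 (-1.51, SE 0.10) were lower as well. ERK feedback genes, which are switched on by ERK and restrain it, shared some of these members, with 13 of 16 lower and 1 higher (median -0.57). The ERK phosphatase DUSP6 had 50.8, 47.9 and 46.6 CPM in Citri libraries, against 124, 120 and 122 CPM in Cimicifugae libraries.

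The YAP targets CCN1 (-1.54, SE 0.08), CCN2 (-0.72, SE 0.07) and ANKRD1 (-0.52, SE 0.06) were lower in Citri cells. The list of TGF-beta and YAP targets was mixed, with 9 of 16 lower and 4 higher (median -0.23), SMAD7 among the higher. Of 12 tested NF-kB and cytokine genes 8 were lower and 2 higher (median -0.75). The adhesion molecule ICAM1 averaged 75.3 ± 3.37 CPM in Citri cells and 127 ± 7.55 CPM in Cimicifugae cells, whereas the inhibitor NFKBIA was higher in Citri cells, by 0.46 (SE 0.05).

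The integrin subunit ITGA2 averaged 88.1 ± 3.93 CPM in Citri cells and 304 ± 12.5 CPM in Cimicifugae cells. ITGA10 (-1.72, SE 0.12) and the neural adhesion molecule L1CAM (-1.71, SE 0.09) were lower as well. GDF15, a stress-induced hormone that also responds to p53, had 177, 168 and 174 CPM in Citri libraries, against 675, 693 and 606 CPM in Cimicifugae libraries. The water and glycerol channel AQP3 had 6.76, 7.35 and 6.83 CPM in Citri libraries, against 29.03, 29.8 and 29.8 CPM in Cimicifugae libraries. Other genes of the low end were the scaffold AKAP12 (-1.94, SE 0.06), the RNA-binding protein RBM24 (-2.33, SE 0.14), the small GTPase RASD1 (-1.95, SE 0.10) and SH2D5 (-1.72, SE 0.09). All were lower without overlap, which was a condition for naming them. Of 18 p53 targets 8 were lower and 5 higher (median -0.09), with CDKN1A, the cyclin-dependent kinase inhibitor p21, at -0.64 (SE 0.04).

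All 26 tested genes of mitosis and the spindle were called higher, with a median of 0.80. KIF20A, a kinesin of cytokinesis, had 82.9, 84.1 and 79.3 CPM in Citri libraries, against 38.9, 37.9 and 38.9 CPM in Cimicifugae libraries. CCNA2, cyclin A2, had 186, 186 and 183 CPM in Citri libraries, against 94.2, 88.5 and 90.4 CPM in Cimicifugae libraries. Vehicle cells averaged 77.1 CPM for KIF20A and 178 CPM for CCNA2, close to the Citri level in both. The spindle kinase AURKA (0.88, SE 0.04), its activator TPX2 (0.72, SE 0.03) and the microtubule binder NUSAP1 (0.98, SE 0.04) moved alike.

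Replication genes followed, with 26 of 27 higher and 0 lower (median 0.59). The helicase subunit MCM3 had 329, 339 and 340 CPM in Citri libraries, against 183, 182 and 188 CPM in Cimicifugae libraries. MCM2 (0.91, SE 0.05), MCM7 (0.77, SE 0.04), MCM4 (0.66, SE 0.03) and the loading factor CDC6 (0.69, SE 0.04) were higher as well. Bulk levels do not say whether more cells were dividing.

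Many mitotic genes carry the letters TTTGAA near their start, the cell cycle genes homology region bound by the DREAM and MuvB complexes. Searched on both strands, the letters occur in 13 of 20 promoter windows of the mitosis list (65%), in 1 of 23 of the replication list (4.35%) and in 9.92% of all 11068 windows. No match lies in the windows of KIF20A or CCNA2. Segments of 4 members that hold a match are shown with the letters in capitals. NUSAP1 is among the 5 mitosis members with the smallest p, and PLK1, CCNB2 and MKI67, the mitotic kinase, cyclin B2 and the proliferation antigen Ki-67, were chosen after their values were seen. They lie at chr15:41332801-41332900 (NUSAP1, plus strand), chr16:23678809-23678908 (PLK1, plus strand), chr15:59105066-59105165 (CCNB2, plus strand) and chr10:128126404-128126503 (MKI67, minus strand) of GRCh38.p14.
NUSAP1: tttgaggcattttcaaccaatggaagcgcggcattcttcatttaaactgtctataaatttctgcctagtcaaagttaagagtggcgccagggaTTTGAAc
PLK1: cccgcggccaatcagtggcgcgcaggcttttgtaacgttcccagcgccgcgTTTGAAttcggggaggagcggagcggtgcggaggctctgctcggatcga
CCNB2: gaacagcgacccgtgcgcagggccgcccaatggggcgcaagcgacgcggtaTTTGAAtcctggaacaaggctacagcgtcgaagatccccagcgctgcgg
MKI67: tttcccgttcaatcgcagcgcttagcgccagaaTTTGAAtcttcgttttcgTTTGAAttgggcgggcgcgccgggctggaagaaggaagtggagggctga
PLK1 averaged 302 ± 3.09 CPM in Citri cells and 155 ± 5.97 CPM in Cimicifugae cells, and MKI67 averaged 389 ± 19.4 CPM in Citri cells and 223 ± 4.13 CPM in Cimicifugae cells.

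Hepatocyte transcription factors were unevenly affected. NR1H4, which encodes the bile acid receptor FXR, had 61.6, 62.2 and 58.8 CPM in Citri libraries, against 18, 16.6 and 17.6 CPM in Cimicifugae libraries (log2 1.81, SE 0.06). CEBPA, a factor that holds hepatocytes in a differentiated state, had 129, 139 and 144 CPM in Citri libraries, against 41.9, 42.4 and 39.3 CPM in Cimicifugae libraries (1.74, SE 0.11). Both groups of libraries were tight and apart, and lack of overlap was a condition for naming these genes. FOXA1 (0.66, SE 0.04) and RXRA (0.49, SE 0.05) were higher too, and HNF4A by 0.19 (SE 0.04). NR0B2, the FXR-induced repressor SHP, was lower in Citri cells, at 44.8 ± 3.00 CPM against 107 ± 7.41 CPM in Cimicifugae cells. In all, 9 of 17 factors were higher and 3 lower (median 0.17).

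Secreted liver proteins had no common direction. Albumin (ALB) did not pass the test (0.03, edgeR adjusted p = 0.698), with 8554, 8081 and 8077 CPM in Citri libraries and 8341, 7829 and 8092 CPM in Cimicifugae libraries. Haptoglobin (HP), which captures free haemoglobin, averaged 167 ± 7.62 CPM in Citri cells and 87.0 ± 1.03 CPM in Cimicifugae cells. The acute phase proteins ITIH3 (-0.95, SE 0.04) and SERPINA3 (-0.82, SE 0.08) were lower. Of 12 acute phase genes 4 were higher and 4 lower (median -0.02), of 21 coagulation and complement genes 6 and 6 (0.00), of 13 carriers 5 and 4 (-0.02), and of 14 apolipoprotein genes 5 and 3 (0.16). Transthyretin (TTR) at -0.92 (SE 0.09), APOM at -0.84 (SE 0.06) and APOC1 at -0.71 (SE 0.10) were the lowest of the carriers and apolipoproteins.

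The lists of lipid, bile acid and nitrogen metabolism had medians between -0.06 and 0.19, with members called in both directions. Of 25 cholesterol synthesis genes 8 were higher and 4 lower (median 0.04). Fatty acid synthesis had 7 of 13 higher and 4 lower (0.19), with the desaturases FADS1 (0.30, SE 0.04) and FADS2 (0.26, SE 0.04) higher. Of 15 PPARA targets 6 were lower and 2 higher (-0.06), among them CPT1A, which admits fatty acids to mitochondria, at 43.5 ± 1.29 CPM in Citri cells and 77.6 ± 0.592 CPM in Cimicifugae cells. Urea cycle and ammonia genes had 5 of 11 higher and 2 lower (0.10), with CPS1, the first enzyme of the cycle, at 64.1 ± 4.25 CPM in Citri cells and 44.7 ± 2.34 CPM in Cimicifugae cells. Bile acid genes had 4 of 12 higher and 3 lower (0.06).

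Protein-folding genes were higher in Citri cells while amino acid and lysosomal genes were lower. Of 16 heat shock genes 13 were higher and 0 lower (median 0.29). HSP90AA1, a cytosolic chaperone, averaged 2289.9 ± 57.8 CPM in Citri cells and 1608 ± 89.7 CPM in Cimicifugae cells. Of 18 endoplasmic reticulum chaperone genes 12 were higher and 1 lower (0.22), with HSPA5, the luminal chaperone BiP, at 1281 ± 33.4 CPM in Citri cells and 919.9 ± 24.9 CPM in Cimicifugae cells. ATF4 targets had 13 of 22 lower and 2 higher (-0.28), among the lower SLC7A11 and asparagine synthetase (ASNS), the second at 29.9 ± 1.96 CPM in Citri cells and 62.8 ± 4.11 CPM in Cimicifugae cells. Autophagy and lysosome genes had 18 of 27 lower and 1 higher (-0.25). SQSTM1, the autophagy receptor p62, had 287, 280 and 287 CPM in Citri libraries, against 537, 547 and 537 CPM in Cimicifugae libraries.

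WNT targets had 7 of 13 higher and 4 lower (median 0.26), with the WNT inhibitors DKK1 (0.85, SE 0.06) and NOTUM (0.63, SE 0.07) the highest of those called. Interferon and antigen presentation genes had 4 of 20 higher and 5 lower (-0.05), and circadian genes 5 of 15 higher and 3 lower (0.05). Of 15 genes of mitochondrial DNA 1 was called, the ribosomal RNA MT-RNR1 (-0.27, SE 0.06). LYZ, the bacteriolytic enzyme lysozyme, had 1178, 1129 and 1161 CPM in Citri libraries, against 2985, 2780 and 2828 CPM in Cimicifugae libraries, and vehicle cells averaged 1289 CPM. At the high end outside the lists stood the diacylglycerol kinase DGKK (1.56, SE 0.06) and KANK4 (1.497, SE 0.07), a regulator of the actin skeleton.

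The comparison was repeated at lower doses in libraries of their own. At 100 µg/mL 389 genes differed (2.42%), 121 higher (0.752%) and 268 lower (1.67%) in Citri cells. The split moved to 231 higher and 328 lower once a trend with GC content was removed. At 500 µg/mL 21.2% of all genes tested were called higher and 20.6% lower. Of the 389 genes, 353 were also called in the same direction at 500 µg/mL. That is 90.7% of the genes called at 100 µg/mL and 5.25% of those called at 500 µg/mL. Another 6, BCYRN1, FGA, MAT1A, RHOBTB3, SELENOP and TAF15, were called in opposite directions, and 30 were called at 100 µg/mL alone. Among the 353, the fold change at 500 µg/mL was the larger in 335, with a median ratio of 2.71. Across all genes tested the fold changes at these doses correlated at r = 0.218, a description across genes, which are not independent.

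CYP1A1 and the metallothioneins already differed markedly at 100 µg/mL. CYP1A1 had a log2 fold change of -2.13 there (SE 0.11), against -2.51 at 500 µg/mL. MT1G gave 1.66, MT1X 1.49, MT1E 1.45, MT1F 1.42 and MT2A 1.31, so that at this dose MT2A stood with its neighbours. IGFBP1 gave -0.72, G6PC1 -0.75 and HAMP 1.26. CEBPA (0.14, edgeR adjusted p = 0.597) and KIF20A (0.13, adjusted p = 0.0766) did not pass the test at 100 µg/mL, and 5 of 26 mitosis genes and 0 of 27 replication genes were called there.

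At 20 µg/mL 2 genes were called (0.0124%), 1 in each direction (0.00621% each), and 551 had an unadjusted p under 0.05. They were CYP1A1, lower in Citri cells by a log2 fold change of -0.79 (edgeR adjusted p = 0.00379), and MT1F, higher by 0.50 (adjusted p = 0.00646). CYP1A1 averaged 11.5 ± 0.477 CPM in Citri cells and 19.8 ± 1.70 CPM in Cimicifugae cells at this dose. MT1F averaged 61.0 ± 1.64 CPM in Citri cells and 43.2 ± 1.49 CPM in Cimicifugae cells.

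**Figure D4:**
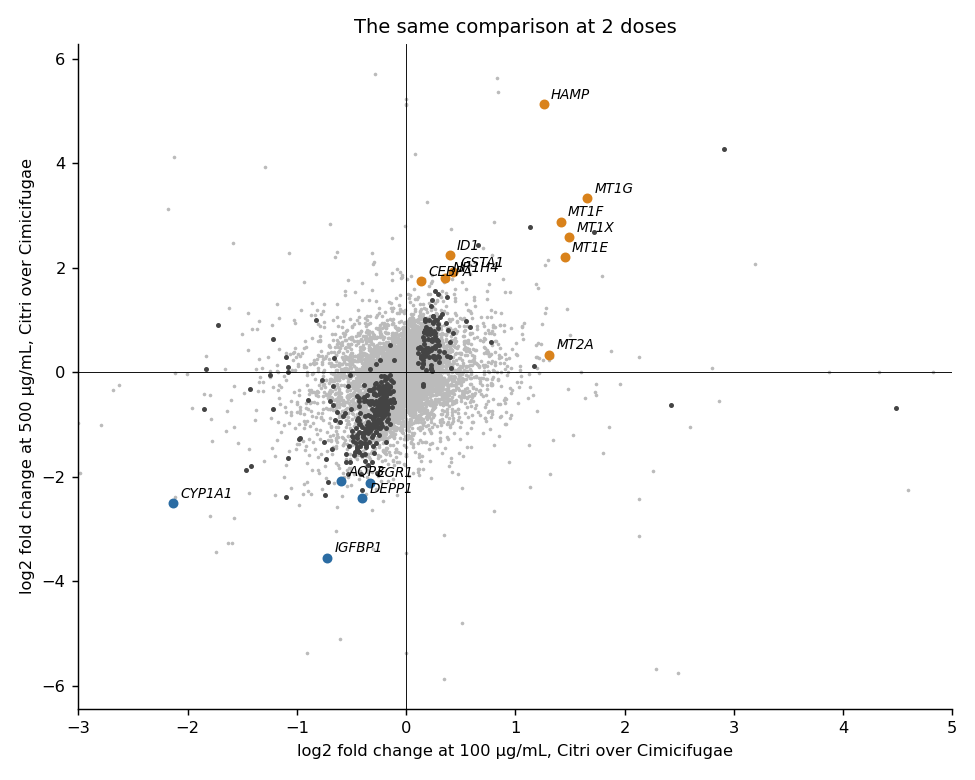
Log2 fold change, Citri over Cimicifugae, at 100 µg/mL (x axis) and at 500 µg/mL (y axis); each point is a gene, dark points were called at 100 µg/mL, coloured points are named genes, and genes beyond the axis limits are not drawn. MT2A lies far to the right but near 0 on the y axis (1.31 and 0.33), and CYP1A1 is at -2.13 and -2.51.

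Whether the extracts changed with dose in different ways was tested as the difference between their effects of 500 against 20 µg/mL, which uses the same libraries at 500 µg/mL. It was called for 4535 genes (28.2%), 2368 positive (14.7%) and 2167 negative (13.5%). Within Citri, 265 genes differed between 500 and 20 µg/mL (1.65%), 117 higher (0.727%) and 148 lower (0.92%). Within Cimicifugae, 6316 did (39.2%), 3140 higher (19.5%) and 3176 lower (19.7%). For 500 over 20 µg/mL, HAMP had a log2 fold change of 0.10 in Citri cells and -4.85 in Cimicifugae cells. IGFBP1 had 0.11 in Citri cells and 3.45 in Cimicifugae cells. For these genes the distance to the lowest dose lay with Cimicifugae.

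Median dose effects over the lists are given for both extracts. The median effect of 500 against 20 µg/mL over the mitosis genes was 0.02 in Citri cells and -0.81 in Cimicifugae cells, and over immediate early genes it was -0.12 in Citri cells and 0.92 in Cimicifugae cells. Most metallothionein and zinc genes fell in both, with medians of -0.59 in Citri cells and -1.65 in Cimicifugae cells. Of 10 tested, 7 were called lower and 0 higher in Citri cells, and 8 lower and 1 higher in Cimicifugae cells. MT2A was the exception in size, at -0.63 in Citri cells and -0.41 in Cimicifugae cells, with no called difference between them (edgeR adjusted p = 0.388). In Cimicifugae cells it averaged 296 ± 34.9, 167 ± 10.7 and 223 ± 51.4 CPM at 20, 100 and 500 µg/mL, with its lowest mean at the middle dose. CYP1A1 rose with dose in both, by 3.13 in Citri cells and 4.85 in Cimicifugae cells. NRF2 targets also rose in both, 15 of 22 in Citri cells (median 0.31) and 17 of 22 in Cimicifugae cells (median 0.47).

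**Figure D5:**
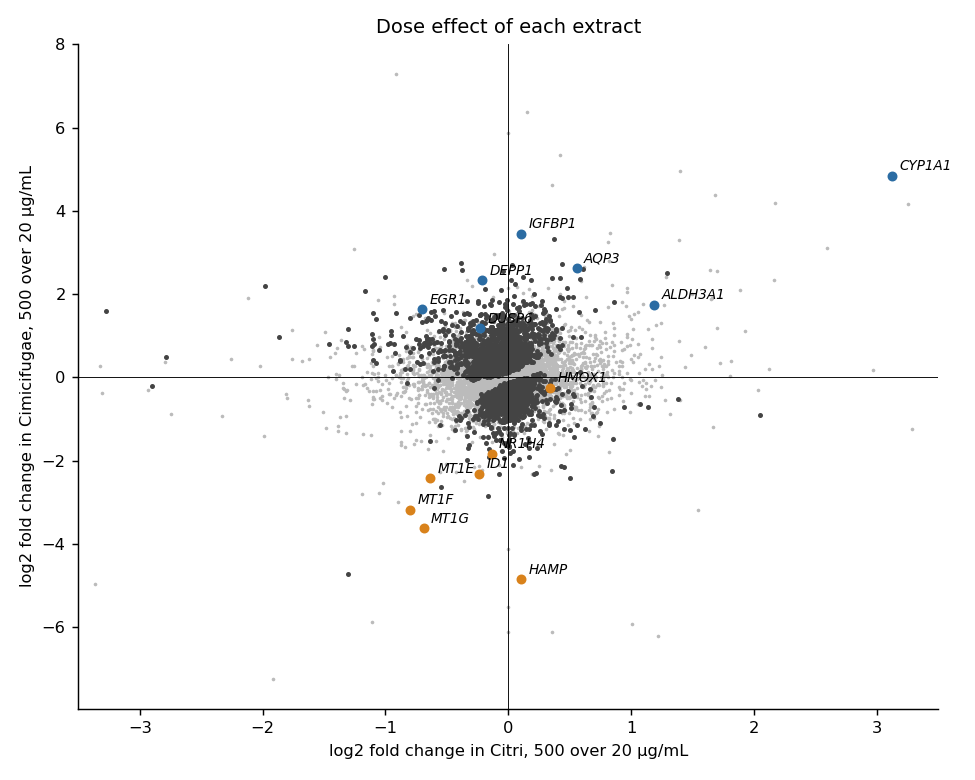
Log2 fold change of 500 over 20 µg/mL in Citri (x axis) and in Cimicifugae (y axis); each point is a gene, dark points differ between the extracts by the edgeR test, and coloured points are named genes, orange where the level at 500 µg/mL is higher in Citri cells and blue where it is lower. Most dark points spread along the y axis; CYP1A1 is high on both axes (3.13 and 4.85) and EGR1 is negative in Citri (-0.70) and positive in Cimicifugae (1.63).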

How the data were processed

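HepG2 messenger RNA was sequenced from MGIEasy directional libraries as 100 bp paired ends, per the labels' protocols. Per the submitters' processing notes, the tools included FastQC 0.11.9, Trim Galore 0.6.5, STAR 2.7.3a and RSEM 1.3.3 on GRCh38; the annotation release is not given in the sources used here. The authors deposited expected counts per gene (60675 genes), which were rounded to whole numbers; 207 columns of other samples in the table were not used. Libraries were grouped by their treatment labels.

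The 57 libraries of 19 replicated groups were fitted together with edgeR 4.0.16 (R 4.3.3) after its expression filter and TMM scaling. The quasi-likelihood test used group means only, and p-values were adjusted by Benjamini-Hochberg over 16093 genes, with calls under 0.05. Library totals ran from 17598646 to 30451640, TMM factors from 0.898 to 1.04, and the common biological coefficient of variation was 4.86%. CPM values are counts scaled to the library size and TMM factor, without length, so levels are compared within a gene. The SE of a log2 fold change was taken from its F statistic. On simulated counts for the comparison at 500 µg/mL (16005 genes), 54 of 67 genes changed 1.5-fold, 64 of 67 changed 2-fold, 66 of 66 changed 4-fold and 6 of 15805 unchanged genes were called. The changed genes left out those of lowest counts and were far fewer than the genes called in the data. The simulated spread followed the fitted trend. No pair of replicates at 500 µg/mL agreed within sampling noise or was identical.

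The gene lists (674 entries in 40 lists) and the libraries compared were chosen with earlier results of these data known. Genes named were the 15 highest and 15 lowest protein-coding genes that were called, did not overlap between the extracts and averaged 5 CPM or more, and the 5 members of each list with the smallest p; other names are list members given for their place in the list or genes chosen after their values were seen. A few genes that this rule selects are not reported here. Genes called at 100 µg/mL in the opposite direction are named because they are few. Symbols came from a supplied name table (57055 IDs matched), gene coordinates from GENCODE 29 and promoter windows from RefSeq (GRCh38.p14), of which 11068 belonged to tested genes. Alternatives were DESeq2 1.42.0, median-ratio size factors, removal of a GC trend, other filters, fewer libraries in the fit, a replicate block and leaving out each library.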

Additional observations from a re-analysis of the deposited data

Results flagged for a closer look

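The effect of 500 against 20 µg/mL differed between Citri and Cimicifugae for 4535 genes, by edgeR's test of the difference itself. Of these genes, 41 fell in Citri cells and rose in Cimicifugae cells, both past the threshold, and 11 rose in Citri cells and fell in Cimicifugae cells. Among all genes tested, whether or not that difference was called, 80 rose and 70 fell in both extracts. Each gene below is singled out because its dose effects were called in opposite directions in the 2 extracts and the difference between them (Citri minus Cimicifugae, log2) was called.

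Among genes that fell with dose in Citri cells and rose in Cimicifugae cells, EGR1 had the furthest difference, -2.33 (SE 0.12): it averaged 8.38 CPM at 500 µg/mL against 13.6 CPM at 20 µg/mL in Citri cells, and 36.4 CPM at 500 µg/mL against 11.7 CPM at 20 µg/mL in Cimicifugae cells. The receptor phosphatase PTPRH differed by -1.48, the ERK phosphatase DUSP6 by -1.41, the nuclear repressor NR0B2 by -1.37 and the early response gene IER3 by -1.35. Within Citri cells the log2 fold changes were smaller: -0.38 for PTPRH, -0.23 for DUSP6, -0.23 for NR0B2 and -0.28 for IER3. Their edgeR adjusted p were 0.0253, 0.0018, 0.0389 and 0.00365 in that order. Vehicle cells averaged 11.7 CPM for EGR1 and 7.54 CPM for PTPRH, above the Citri means at 500 µg/mL (8.38 and 5.56 CPM). For DUSP6, NR0B2 and IER3 vehicle cells averaged 51.5, 43.9 and 68.1 CPM. The Citri means were 48.5, 44.8 and 67.2 CPM at 500 µg/mL and 56.9, 52.7 and 81.6 CPM at 20 µg/mL. Vehicle levels of DUSP6, NR0B2 and IER3 lay nearer the Citri mean at 500 than at 20 µg/mL.

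Among genes that rose with dose in Citri cells and fell in Cimicifugae cells, the kinetochore protein SKA1 differed by 0.66, the nuclear importer KPNA2 by 0.65 and the mitotic phosphatase CDC25B by 0.59. Their rises in Citri cells were small, 0.23, 0.12 and 0.16 in that order (edgeR adjusted p = 0.0442, 0.0452 and 0.0255). Their log2 fold changes in Cimicifugae cells were -0.44, -0.53 and -0.43. SKA1 averaged 24.3 CPM at 500 µg/mL and 20.8 CPM at 20 µg/mL in Citri cells, and 23.9 CPM in vehicle cells. KPNA2 averaged 445, 410 and 429 CPM in that order, and CDC25B 114, 102 and 90.1 CPM. Dose effects within an extract were not refitted under the alternatives. MAT1A, which makes S-adenosylmethionine in liver, differed by 0.59, and so did HMOX1, the haem-degrading NRF2 target, by 0.59. HMOX1 averaged 78.1 CPM at 500 µg/mL against 61.8 CPM at 20 µg/mL in Citri cells. In Cimicifugae cells it averaged 51.8 CPM at 500 µg/mL against 61.6 CPM at 20 µg/mL, and vehicle cells averaged 55.4 CPM.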

How the results depend on the processing

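The count of genes called at 500 µg/mL stayed within 1.5 times of 6720 under all 14 alternatives (5942 to 7143), and that of the difference of dose effects within 1.5 times of 4535 (4084 to 5121). No gene called at 500 µg/mL was called in the opposite direction under any of the 14. Of 2612 alternative values of 187 named genes, 2587 kept their call, 25 lost it and 0 reversed. The 30 genes with the highest and lowest fold changes kept theirs in all 420. Named genes were mostly picked from these same libraries by their calls, fold changes or p, so kept calls were likely from the start. The comparison at 100 µg/mL (389 genes) was less stable: leaving out single libraries gave 212 to 360 genes, with 244 and 212 without Cimicifugae replicates 1 and 3 and 219 and 243 without Citri replicates 1 and 3, and the replicate block gave 642. At 20 µg/mL, against 2 genes, DESeq2 called 4, the fit without the GC trend 5, that without a filter on low counts 79, the fit of the compared groups alone 18, the replicate block 6, and leaving out single libraries 0 to 2 (edgeR; 551 had an unadjusted p under 0.05 with all libraries). The cause of these shifts was not tested. Whether replicate numbers pair the samples was not tested. At 500 µg/mL the deviations of same-numbered libraries correlated at 0.145, -0.112 and -0.095, and not every library was closest to its own number. The same correlations were 0.118, 0.007 and 0.094 at 100 µg/mL, and 0.038, 0.075 and -0.017 at 20 µg/mL. The block gave 7143 genes at 500 µg/mL and 5121 for the difference of dose effects. Of 1680 list counts and medians 80 moved, mostly counts of few genes. With 3 libraries a group, simulated 1.5-fold changes were called in 80.6% of the genes so changed, a share that need not hold in the data. Small differences can therefore be missed, and expected counts of near-identical genes are estimates. The vehicle libraries were part of the fit, but no test was made against them, and vehicle levels are given as values.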
